A study of Mus musculus with 45 samples.

Results

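The variable segments of the T cell receptor were examined in CD4+ T cells sorted from the draining lymph nodes (dLN) of immunized WT and S1PR4-/- mice. The segments were selected on their measured abundance, as the genes whose symbols start with Trav or Trbv followed by a digit and whose counts sum to 100 or more over the 24 T cell samples. Of 163 such genes among the 55450 of the table, 127 qualified, namely 104 of 128 alpha segments and 23 of 35 beta segments. The alpha segment Trav11 lay just below the limit with a sum of 99 counts, as did Trav6n-5 with 98.7, while the beta segment Trbv21 lay just above it with 105 and the alpha segment Trav13d-4 with 131.1. The selected segments held 99.7% of all alpha segment counts and almost all beta segment counts.

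The T cells formed 4 groups of 6 samples, all from day 6 after hind footpad injection of 20 µl of an IFA emulsion with 50 µg OVA and 5 µg LPS. Tfh cells were sorted as TCRβ+ CD4+ PD1+ CXCR5+ cells, and non-Tfh cells as TCRβ+ CD4+ PD1- CXCR5- cells. WT mice (S1pr4+/+) were littermates of the S1PR4-/- mice, which carry the S1pr4tm1Dgen allele in every cell (strain B6.129P2-S1pr4tm1Dgen/J) and came from at least 10 rounds of crossing back to C57/BL6. Mice of both sexes were 8 to 12 weeks old. Another 21 samples of the series were B cells. S1pr4 itself was at 10 to 40 counts in the S1PR4-/- T cell samples and at 1811 to 6305 counts in the WT T cell samples. The T cell libraries held 29280430 to 45548215 counts. The summed level of 7 Tfh markers (Bcl6, Cxcr5, Pdcd1, Icos, Il21, Tox2 and Sh2d1a) was 2724 to 4163 CPM (counts scaled to a common library size) in Tfh samples. It was 213.2 to 503.8 CPM in non-Tfh samples. All 7 were called higher in Tfh cells of either genotype, beside 43.2% (WT) and 43.4% (S1PR4-/-) of all genes called in either direction.

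A T cell receptor pairs an alpha and a beta chain, and the variable segment that each chain uses is joined to the rest of the chain by gene rearrangement in the thymus. The variable segment encodes the first and second antigen-contacting loops of its chain and the start of the third. A clone that divides after meeting its antigen multiplies its own pair of segments, and the shares of the segments in a mixed population therefore follow the clones in it. Tfh cells are the CD4+ T cells that help B cells in germinal centers. The receptor's constant regions (Trac, Trbc1 and Trbc2) are shared by all alpha or all beta chains, whatever the variable segment.

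The germline ends of the segments on which the results turn are printed here from the GENCODE M21 transcripts, to show what distinguishes one segment from another and where segments cannot be told apart. Each line holds the last 60 coding bases, 5′ to 3′, and the capitals run from the codon of the conserved cysteine to the end of the segment, the part that enters the third loop.

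Trbv1: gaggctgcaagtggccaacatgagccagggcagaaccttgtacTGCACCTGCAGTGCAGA
Trbv2: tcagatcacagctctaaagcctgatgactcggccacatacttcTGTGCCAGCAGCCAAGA
Trbv3: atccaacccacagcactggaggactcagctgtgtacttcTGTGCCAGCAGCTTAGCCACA
Trbv16: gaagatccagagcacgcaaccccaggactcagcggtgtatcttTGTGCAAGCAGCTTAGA
Trbv17: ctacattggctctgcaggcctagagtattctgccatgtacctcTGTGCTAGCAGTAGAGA
Trav14-1: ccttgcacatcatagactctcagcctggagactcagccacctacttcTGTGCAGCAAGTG
Trav14d-1: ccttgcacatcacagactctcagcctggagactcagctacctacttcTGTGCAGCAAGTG
Trav14n-1: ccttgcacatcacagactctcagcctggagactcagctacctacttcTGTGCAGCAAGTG

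On mm10, the 5 beta windows lie on the plus strand at chr6:40891826-40891885 (Trbv1), chr6:41047936-41047995 (Trbv2), chr6:41048769-41048828 (Trbv3), chr6:41152171-41152230 (Trbv16) and chr6:41163497-41163556 (Trbv17). The alpha windows lie on the plus strand at chr14:53554499-53554558 (Trav14-1), chr14:52856107-52856166 (Trav14d-1) and chr14:53167119-53167178 (Trav14n-1). Trav14-1 differed from Trav14d-1 at 2 of the 60 bases, and Trav14d-1 and Trav14n-1 at 0. The alpha locus of this strain holds near copies of a block of segments, named with d and n. Of the alpha segments, 82 shared more than 50% of their 31-base words with another gene, 30 had the same last 280 bases as another selected segment, and 24 had the same count as another one in all 24 samples. Of the beta segments, 2 (Trbv4 and Trbv5) shared more than 50% of their words and 0 had the same last 280 bases as another. The count of a single alpha segment therefore includes reads divided by estimation between copies, and alpha results are also given for families, in which the copies are summed (19 alpha and 20 beta families). All beta families held 1 selected segment except Trbv12 and Trbv13.

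Each sample held between 5282 and 10124 alpha segment counts and between 6272 and 10802 beta segment counts, and the 21 B cell samples held at most 6 and 11. Beta counts were 7529 to 10802 in WT and 7882 to 9386 in S1PR4-/- non-Tfh samples, and 7691 to 9588 and 6272 to 8944 in the Tfh samples. The summed alpha segment level was 219.0 ± 43.7 CPM (SD, n = 6) in WT and 219.9 ± 31.8 CPM in S1PR4-/- non-Tfh cells, and 227.8 ± 38.9 and 211.2 ± 15.8 CPM in WT and S1PR4-/- Tfh cells. The summed beta segment level was 267.6 ± 26.9 and 246.6 ± 17.0 CPM in WT and S1PR4-/- non-Tfh cells, and 246.2 ± 29.5 and 218.2 ± 12.0 CPM in Tfh cells. The ranges overlapped in each of the 4 comparisons for both chains. In bulk samples, fewer cells carrying a transcript and less of it in each cell cannot be told apart. The share of a segment in the counts of its chain, called usage here, is free of the summed level.

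The most used beta segments in WT non-Tfh cells were Trbv3 at 11.3 ± 0.97% (SD, n = 6) of beta counts, Trbv1 at 10.9 ± 0.52%, Trbv19 at 10.2 ± 0.43%, Trbv2 at 8.97 ± 0.25% and Trbv31 at 7.65 ± 0.86%. In S1PR4-/- non-Tfh cells they were Trbv19 at 11.8 ± 0.86%, Trbv1 at 11.2 ± 0.32%, Trbv3 at 10.8 ± 1.48%, Trbv2 at 8.39 ± 0.58% and Trbv16 at 7.63 ± 0.67%. The ranges of Trbv3, Trbv1 and Trbv19 overlapped in either genotype, so their order was not resolved. Among alpha segments Trav7-4 led in all 12 non-Tfh samples, at 7.18 ± 0.14% in WT and 6.86 ± 0.49% in S1PR4-/- cells. With counts divided by exon length, the order of the beta segments over all 24 samples was Trbv3, Trbv2, Trbv16 and Trbv1 at 13.0%, 9.88%, 8.87% and 8.20%, and Trbv19 moved from rank 3 to rank 6, whereas the 5 leading alpha segments kept their places.

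In WT Tfh cells, 11 of the 22 beta segments tested passed the thresholds for usage against non-Tfh cells, 3 higher and 8 lower (edgeR's quasi-likelihood test on the share, FDR under 0.05 over all genes and a fold change over 1.5). Together with 20 of 93 alpha segments, 4 higher and 16 lower, 31 of 115 tested segments (27.0%) were called in WT. Of all genes tested in that comparison, 43.2% were called, beside 21.5% of the alpha and 50% of the beta segments; the difference from genes at large was not tested. Another 12 of the 127 segments did not pass the filter on low counts. In S1PR4-/- mice, 25 of 117 tested segments (21.4%) were called against 43.4% of all genes. They were 3 alpha segments higher and 15 lower, and 2 beta segments higher and 5 lower. In both genotypes, copies with the same count in every sample, such as Trav12d-1 and Trav12n-1, each enter these counts. The median log2 fold change in usage was -0.11 over the tested segments in WT and -0.15 in S1PR4-/-, where that over all genes was 0.00 and 0.01. Tested by level in place of usage, 30 of 115 and 29 of 117 segments were called, again beside 43.2% and 43.4% of all genes.

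Trbv2 had the largest gain in usage among the leading beta segments. It was at 8.75 to 9.46% (median 8.89%) in WT non-Tfh and at 12.6 to 24.2% (median 18.2%) in WT Tfh samples. In S1PR4-/- mice it was at 7.76 to 9.14% (median 8.28%) in non-Tfh and at 11.1 to 24.5% (median 15.7%) in Tfh samples. In both genotypes every Tfh sample lay above every non-Tfh sample. The log2 fold change in usage was 1.06 (SE, the standard error, 0.13, adjusted p = 6.01e-06, edgeR) in WT and 0.97 (SE 0.16, adjusted p = 7.72e-05) in S1PR4-/-.

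Trbv3, whose gene lies next to that of Trbv2, was at 10.3 to 12.9% (median 11.2%) in WT non-Tfh and at 15.6 to 25.8% (median 17.6%) in WT Tfh samples, which did not overlap. In S1PR4-/- mice it was at 9.27 to 12.9% (median 10.2%) in non-Tfh and at 8.54 to 18.2% (median 17.3%) in Tfh samples, where 1 Tfh sample lay below every non-Tfh sample. The change in usage was 0.76 on the log2 scale (SE 0.11, adjusted p = 3.40e-05, edgeR) in WT. In S1PR4-/- it was 0.50 (SE 0.16, adjusted p = 0.0141, edgeR), short of the threshold on the fold change.

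Trbv1, which lies apart at the start of the beta locus, was lower in Tfh cells of both genotypes. It was at 10.2 to 11.8% (median 10.9%) in WT non-Tfh and at 3.65 to 9.56% (median 5.16%) in WT Tfh samples. In S1PR4-/- mice it was at 10.9 to 11.6% (median 11.2%) in non-Tfh and at 3.84 to 5.98% (median 4.71%) in Tfh samples. The groups did not overlap in either genotype, and the change in usage was -0.91 on the log2 scale (SE 0.20, adjusted p = 0.000859, edgeR) in WT and -1.20 (SE 0.11, adjusted p = 2.69e-07) in S1PR4-/-.

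Trbv17 had the lowest adjusted p of all segments in WT. It was at 2.29 to 3.03% (median 2.49%) in non-Tfh and at 0.620 to 1.01% (median 0.821%) in Tfh samples, a change of -1.65 on the log2 scale (SE 0.15, adjusted p = 2.35e-07, edgeR). In S1PR4-/- Tfh cells 5 samples were at 0.928 to 1.5% and 1 was at 5.35%, whereas the non-Tfh samples were at 1.97 to 2.62%. The log2 fold change there was -0.33 (SE 0.37, adjusted p = 0.443, edgeR), and the difference between the genotypes did not pass in the interaction test (log2 1.32, SE 0.42, adjusted p = 0.323, edgeR).

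Trbv16 was called in S1PR4-/- and not in WT mice, and the difference between genotypes did not pass (interaction log2 0.67, SE 0.32, adjusted p = 0.540, edgeR). In WT it was at 6.45 to 7.43% (median 6.94%) in non-Tfh and at 4.12 to 11.3% (median 6.17%) in Tfh samples. In S1PR4-/- it was at 6.83 to 8.53% (median 7.57%) in non-Tfh and at 6.19 to 18.5% (median 12.0%) in Tfh samples, and the groups overlapped. Its log2 fold change between the S1PR4-/- populations was 0.67 (SE 0.24, adjusted p = 0.0220, edgeR). It was 0.56 (adjusted p = 0.0383, edgeR) and no longer past the fold threshold with the replicate number as a block, and it lost the call without S1PR4-/- Tfh replicate 3 or 6 (0.51 and 0.53, adjusted p = 0.0589 and 0.0575).

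Among other beta segments with a mean share of at least 1%, Trbv14, Trbv4, Trbv13-3 and Trbv19 were lower in every WT Tfh sample than in every WT non-Tfh sample. Trbv14 was at 1.40 to 1.70% against 0.429 to 0.994%, and Trbv4 at 3.97 to 4.79% against 0.993 to 3.05%. Trbv19 was at 9.62 to 10.7% in non-Tfh and 5.20 to 9.46% in Tfh samples, but its log2 fold change of -0.57 (adjusted p = 0.00114, edgeR) was short of the fold threshold. In all, 8 of these 18 beta segments did not overlap between populations in WT (2 higher, 6 lower) and 3 did not in S1PR4-/- (Trbv2 and Trbv13-2 higher, Trbv1 lower). Of all genes tested, 48.4% in WT and 48.5% in S1PR4-/- did not overlap in CPM, and 43.2% and 43.4% were called.

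**Figure D1:**
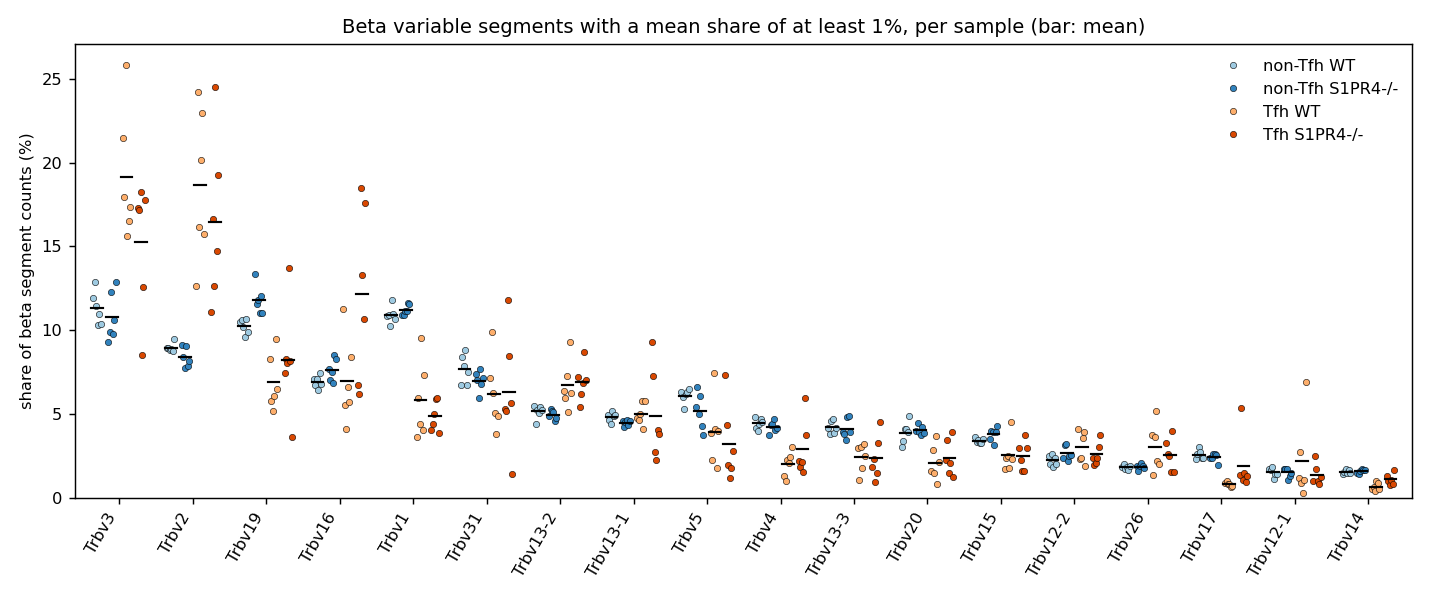
Share of each of 18 beta variable segments in the beta segment counts of a sample (y axis, percent), for the segments with a mean share of at least 1%; points are the 6 samples of each group and bars their means. Trbv2 lies between 11.1 and 24.5% in Tfh samples and between 7.76 and 9.46% in non-Tfh samples, and relative to the mean the Tfh samples scatter more than the non-Tfh samples of their genotype in all 18 segments.

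Among alpha segments, Trav14-1 moved most clearly. It was at 2.17 to 2.80% (median 2.46%) in WT non-Tfh and at 3.09 to 13.6% (median 7.18%) in WT Tfh samples. In S1PR4-/- mice it was at 2.07 to 2.52% (median 2.32%) in non-Tfh and at 3.20 to 14.6% (median 7.46%) in Tfh samples. No Tfh sample was as low as the highest non-Tfh sample of its genotype. The change in usage was 1.60 on the log2 scale (SE 0.26, adjusted p = 6.09e-05, edgeR) in WT and 1.79 (SE 0.29, adjusted p = 6.99e-05) in S1PR4-/-. It shared 32.5% of its 31-base words with other genes, fewer than the median alpha segment at 77.7%.

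The whole Trav14 family held 23.5 ± 1.18% and 22.9 ± 1.12% of alpha counts in WT and S1PR4-/- non-Tfh cells, and 24.2 ± 3.83% and 22.1 ± 4.41% in Tfh cells. Within the family, Trav14-3 was lower in WT Tfh cells, at 0.748 to 1.43% against 1.94 to 2.37% in non-Tfh cells (log2 fold change -1.06, SE 0.18, adjusted p = 0.000118, edgeR). Trav14-2 was at 1.41 to 8.44% in WT Tfh and 1.14 to 3.11% in S1PR4-/- Tfh samples, beside 2.48 to 3.51% and 2.52 to 3.09% in the non-Tfh samples. In S1PR4-/- its log2 fold change was -0.61 (adjusted p = 0.0358, edgeR), and the call was lost without any 1 of 7 of the 12 samples and in the fit of all T cell samples (adjusted p = 0.0558 to 0.0759). Trav14d-3-dv8, the third most used alpha segment, was at 1.18 to 8.12% in WT Tfh and 1.49 to 4.75% in S1PR4-/- Tfh samples, and at 3.53 to 4.49% in non-Tfh samples.

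Trav7d-2 and Trav7-2, chosen after their values were seen, traded counts between samples and are described by their sum. It was 4.19 to 4.73% in WT and 4.29 to 5.02% in S1PR4-/- non-Tfh samples, and 1.41 to 2.79% and 1.4 to 3.23% in the Tfh samples, without overlap in either genotype. Singly, neither was called for usage in the main fits of either genotype. By level, Trav7d-2 was called lower in S1PR4-/- Tfh cells (log2 fold change -3.13, adjusted p = 0.0453, edgeR), where 43.4% of all genes were called. For usage it was called there with the replicate number as a block and in one fit of all T cell samples. The sum was not tested.

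Other alpha segments with low adjusted p in S1PR4-/- were lower in Tfh cells. Trav5-4 was at 0.981 to 1.74% in non-Tfh and 0.472 to 0.941% in Tfh samples, which did not overlap (log2 fold change -1.10, SE 0.21, adjusted p = 0.000278, edgeR). Trav12d-1, counted the same as its copy Trav12n-1 in all samples, was at 0.288 to 0.510% in non-Tfh and 0 to 0.160% in Tfh samples (log2 fold change -2.45, SE 0.48, adjusted p = 0.000382). Trav12-2, the fifth most used alpha segment, was at 2.52 ± 0.29% and 2.45 ± 0.15% in WT and S1PR4-/- non-Tfh cells and at 2.43 ± 0.29% and 3.35 ± 1.10% in Tfh cells. Trav7-4 was at 3.72 to 12.1% in WT Tfh and 3.69 to 12.3% in S1PR4-/- Tfh samples, around the values in non-Tfh cells.

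Summed to families, 4 of 19 alpha families were called in WT, Trav4 as higher and Trav5, Trav15 and Trav19 as lower, and 1 (Trav11, lower) in S1PR4-/-. Trav4 rose from 4.57 ± 0.23% to 7.11 ± 2.62% of alpha counts in WT (log2 fold change 0.64, SE 0.20, adjusted p = 0.00913, edgeR). Of 19 beta families tested, 10 were called in WT (3 higher, 7 lower) and 6 in S1PR4-/- (2 higher, 4 lower). In these fits 43.4% and 43.5% of all genes were called. Trbv2 was called higher and Trbv1, Trbv20 and Trbv24 were called lower in both genotypes.

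**Figure D2:**
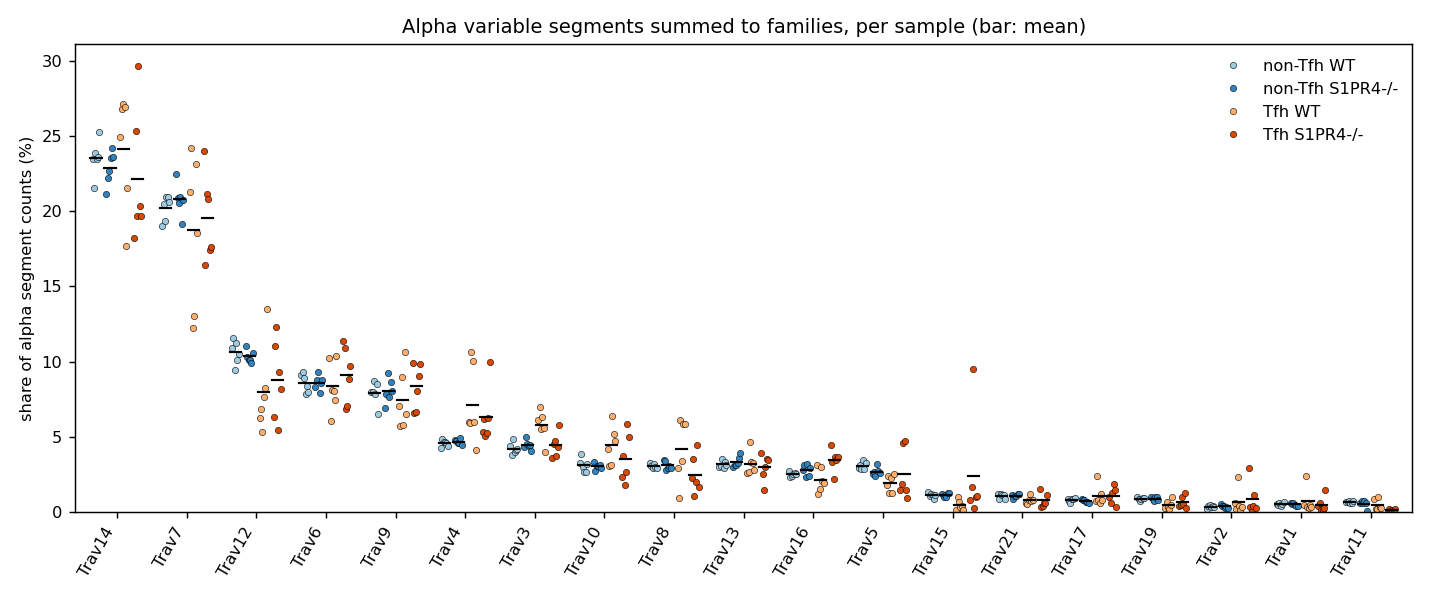
Share of each of 19 alpha variable segment families in the alpha segment counts of a sample (y axis, percent), with the 6 samples of each group as points and their means as bars. Trav14 and Trav7 lead in all groups, and 1 S1PR4-/- Tfh sample stands at 9.50% for Trav15, where the other Tfh and non-Tfh samples are below 2%.

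Of the segments called in 1 genotype or the other, 10 were called in both, all in the same direction, which is 32.3% of the 31 calls in WT and 40% of the 25 calls in S1PR4-/-. They were Trbv2 and Trav14-1, both higher in Tfh cells, and Trbv1, Trbv13-3, Trbv20, Trbv24, Trav12d-1, Trav12n-1, Trav12d-2 and Trav12n-2, all lower. Of these, Trav12d-1 and Trav12n-1, and likewise Trav12d-2 and Trav12n-2, are copies with the same count in every sample. Over all genes, 4880 were called in both, which is 83.8% of the calls in WT and 84.1% of those in S1PR4-/-. These comparisons share no samples. The interaction of population and genotype called 0 of 120 segments for usage and 0 by level at an FDR under 0.05 (edgeR), where 0.0139% of all genes passed. At an unadjusted p under 0.05 there were 16 and 12 segments, beside 9.23% and 9.19% of all genes, and DESeq2 also called 0.

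**Figure D3:**
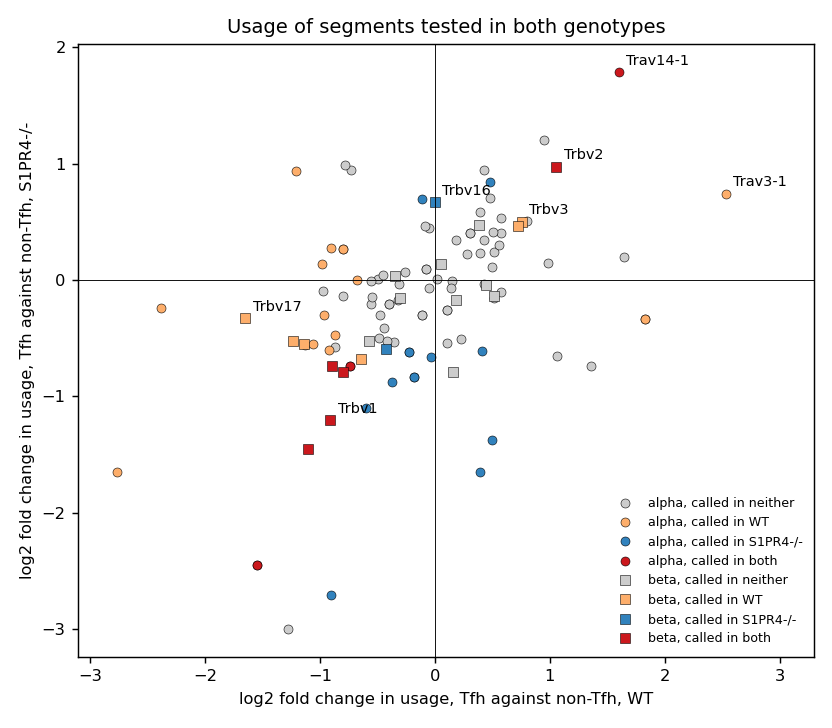
Log2 fold change in usage between Tfh and non-Tfh cells in WT (x axis) and S1PR4-/- mice (y axis) for the 115 segments tested in both; circles are alpha and squares beta segments, and color gives the genotype in which a segment was called. Trbv2 and Trav14-1 lie in the upper right and Trbv1 in the lower left.

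Usage was less even in Tfh than in non-Tfh cells for both chains. Evenness is given as Pielou's index, which is 1 when all segments have the same share, and as the effective number of segments, the inverse of the summed squared shares. For beta segments the index was 0.885 to 0.899 in WT and 0.884 to 0.895 in S1PR4-/- non-Tfh samples, and 0.794 to 0.845 in WT and 0.778 to 0.864 in S1PR4-/- Tfh samples. The effective number was 14.0 ± 0.35 and 13.8 ± 0.35 in WT and S1PR4-/- non-Tfh cells and 9.42 ± 1.09 and 10.2 ± 1.83 in Tfh cells (SD, n = 6). Every Tfh sample was below every non-Tfh sample on both measures. The 5 most used beta segments of each sample held 49.3 ± 1.3% and 50.0 ± 1.52% of beta counts in non-Tfh cells and 60.9 ± 3.41% and 61.1 ± 7.59% in Tfh cells.

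For alpha segments the index was 0.899 to 0.908 in WT and 0.903 to 0.914 in S1PR4-/- non-Tfh samples, and 0.805 to 0.870 in WT and 0.818 to 0.888 in S1PR4-/- Tfh samples. The effective number was 47.6 ± 0.93 and 49.5 ± 1.99 in non-Tfh cells and 33.6 ± 6.21 and 36.0 ± 8.73 in Tfh cells. Here too the populations did not overlap. Between families of alpha segments they did: the index was 0.805 ± 0.005 and 0.805 ± 0.006 in WT and S1PR4-/- non-Tfh cells and 0.794 ± 0.016 and 0.801 ± 0.024 in Tfh cells. The mean alpha evenness was thus lower in Tfh cells on both scales, but only between segments did the populations not overlap. For beta chains they overlapped neither between segments nor between families. The alpha segment index counts copies whose reads were divided by estimation. Segments named without d or n held 52.1 ± 1.88% and 51.6 ± 2.28% of alpha counts in WT and S1PR4-/- non-Tfh cells. In Tfh cells they held 59.2 ± 6.31% and 58.7 ± 3.56%. The part of the copies in the alpha evenness was not tested. Between genotypes the ranges overlapped in both populations and for both chains. As a score over segments chosen with the values known, evenness was not given a test.

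**Figure D4:**
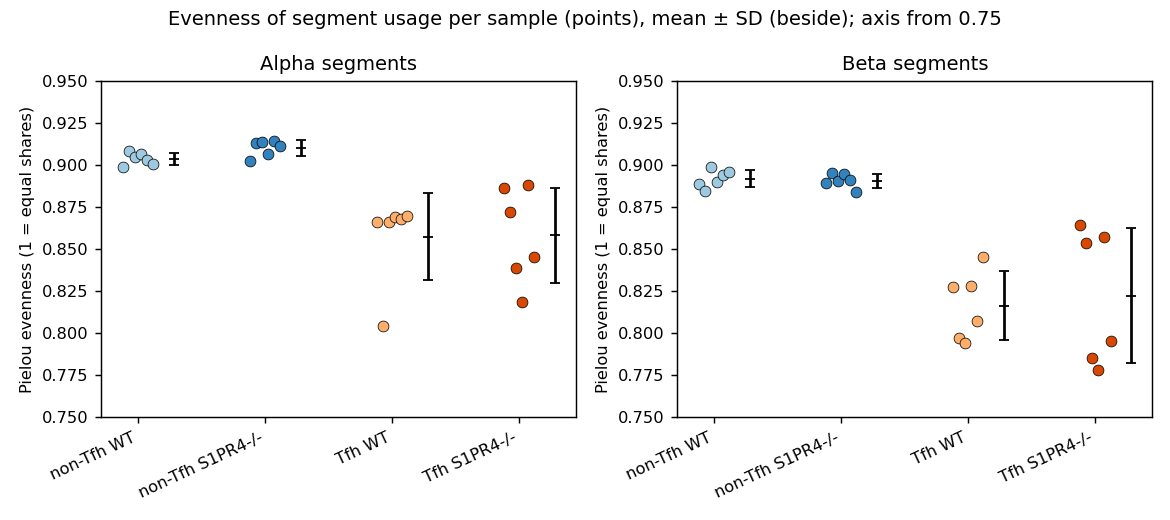
Pielou evenness of alpha (left) and beta (right) segment usage, with 1 point for each sample and the mean ± SD of the 6 samples beside it; the y axis starts at 0.75. All Tfh samples lie below all non-Tfh samples for both chains, and the genotypes overlap.

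Tfh samples also differed more from each other. For the 18 beta segments with a mean share of at least 1%, the median coefficient of variation (CV, SD over mean) between the 6 samples was 0.0730 and 0.0831 in WT and S1PR4-/- non-Tfh cells and 0.351 and 0.412 in Tfh cells. The CV that counting error alone would give was 0.0476 and 0.0515 in non-Tfh cells and 0.0577 and 0.0637 in Tfh cells. The CV was higher in Tfh cells for all 18 beta segments in either genotype. For the 37 alpha segments of that size the median CV was 0.124 and 0.116 in non-Tfh and 0.502 and 0.446 in Tfh cells, and it was higher in Tfh cells for 37 segments in WT and 36 in S1PR4-/-.

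**Figure D5:**
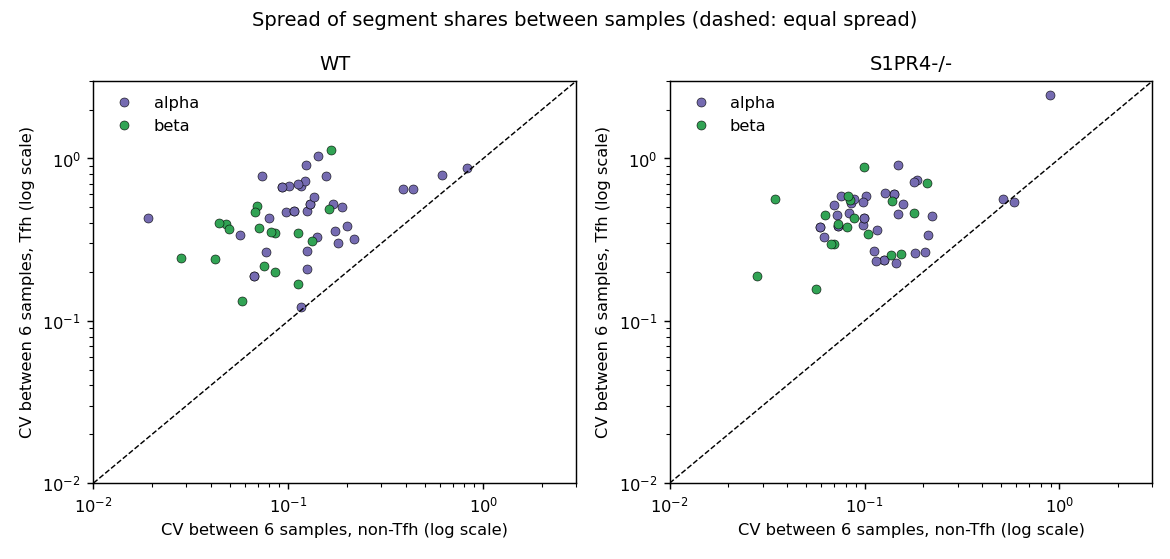
Coefficient of variation of a segment's share between the 6 samples of a group in non-Tfh cells (x axis) and Tfh cells (y axis), both on log scales, for 37 alpha and 18 beta segments in WT (left) and S1PR4-/- mice (right). In WT 55 of 55 points lie above the dashed line of equal spread, and in S1PR4-/- 54 of 55 do.

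The same was seen for whole usage profiles, compared as the percentage of counts that would have to change segment to turn one profile into another. Pairs of non-Tfh samples differed by a median of 4.52% (WT) and 5.57% (S1PR4-/-) of beta counts, and pairs of Tfh samples by 18.3% and 21.9%. Tfh samples of different genotypes differed by 20.4%. For alpha counts the medians were 9.81% and 9.94% for non-Tfh pairs, 34.1% and 32.5% for Tfh pairs, and 33.9% between genotypes in Tfh cells. For beta counts, 2 of 6 WT and 1 of 6 S1PR4-/- Tfh samples were closest to the same-numbered non-Tfh sample, and for alpha counts 2 and 0 did so.

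The leading segment differed accordingly. In WT Tfh cells the most used beta segment was Trbv2 in 3 samples and Trbv3 in 3, and in S1PR4-/- Tfh cells it was Trbv2 in 3, Trbv3 in 2 and Trbv16 in 1, at 14.7 to 25.8% of beta counts over the 12 samples. The most used alpha segment in WT Tfh cells was Trav7-4 in 3 samples and Trav14-1, Trav14-2 and Trav14d-3-dv8 in 1 each. In S1PR4-/- Tfh cells it was Trav14-1 in 3 samples, Trav7-4 in 2 and Trav12-3 in 1. The number of cells behind each library is not given in the sources used here. The paper names standard and low-input amounts of RNA for the sorted populations without tying them to samples. The part of input in the evenness and spread of Tfh samples was not tested.

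The comparison of genotypes addresses whether loss of S1PR4 altered the receptors of the responding cells. In Tfh cells, 0 of 110 tested segments were called for usage, where 0.511% of all genes passed, and 0 by level, where 0.496% did (edgeR). At an unadjusted p under 0.05 there were 17 segments for usage and 16 by level, beside 19.2% of all genes. DESeq2, the method the study used for its own comparisons, called 5 segments by level and was not run on usage there. The share of all genes that it called is not given here, so these 5 cannot be set beside genes at large. In non-Tfh cells 0 of 117 were called for usage beside 0.121% of all genes, and 0 by level beside 0.114%, with 4 at an unadjusted p under 0.05 in each, where 11.4% and 11.3% of all genes were.

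Trav3-1 had the lowest p in Tfh cells, named after its values were seen. It was at 0.494 to 4.68% (median 1.45%) in WT and at 0.262 to 0.914% (median 0.548%) in S1PR4-/- Tfh samples, beside 0.234 to 0.419% in non-Tfh samples (log2 fold change -1.85, SE 0.49, adjusted p = 0.0690, edgeR). Trbv17 followed with 1.24 (SE 0.39, adjusted p = 0.105), and its S1PR4-/- value rests in part on the sample at 5.35%. Trbv16 was at a log2 fold change of 0.80 (approximate 95% interval 0.23 to 1.38, adjusted p = 0.152, edgeR). For Trbv2 the fold change was -0.18 (interval -0.56 to 0.20), for Trbv3 -0.32 (-0.66 to 0.02), for Trbv1 -0.26 (-0.69 to 0.18) and for Trav14-1 0.09 (-0.61 to 0.78), and each of these 4 intervals includes 0. In one fit of all 24 samples, whose estimate of spread also draws on the tighter non-Tfh samples, 6 segments were called for usage (Trav3-1, Trav14-2, Trav4d-3 and Trav4n-3 lower, Trbv17 and Trbv14 higher in S1PR4-/- Tfh cells), where 0.785% of all genes were called. Between populations, Trav3-1 was called higher in WT Tfh cells (log2 fold change in usage 2.53, SE 0.46, adjusted p = 0.00019, edgeR), where 43.2% of all genes were called. In S1PR4-/- it was not called (0.74, SE 0.32, adjusted p = 0.0529, edgeR). The interaction test called 0 segments for usage.

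In non-Tfh cells, Trbv19 was at 9.62 to 10.7% in WT and 11.01 to 13.3% in S1PR4-/- samples, which did not overlap, but the log2 fold change of 0.20 (SE 0.07, adjusted p = 0.253, edgeR) did not pass. It was the 1 of 55 segments with a mean share of at least 1% whose genotypes did not overlap in non-Tfh cells, and 0 of 55 did so in Tfh cells. Of all genes tested, 1.14% in non-Tfh and 1.9% in Tfh cells did not overlap between genotypes in CPM.

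Trav11 is the alpha segment of invariant NKT cells, which join it to Traj18. The family, made of the selected segments Trav11d and Trav11n, was at 0.669 ± 0.06% and 0.555 ± 0.24% of alpha counts in WT and S1PR4-/- non-Tfh cells, and at 0.473 ± 0.37% and 0.131 ± 0.08% in Tfh cells. It was called lower in S1PR4-/- Tfh than non-Tfh cells (log2 fold change -2.07, SE 0.55, adjusted p = 0.00364, edgeR). Zbtb16, the transcription factor that marks these cells, was at 0 to 0.617 CPM in all T cell samples. The summed level of 5 genes listed for these cells was 157.2 to 658.2 CPM in non-Tfh and 672.6 to 925.4 CPM in Tfh samples. Its largest part was Il2rb, at 265.5 ± 77.5 and 405.1 ± 109.5 CPM in WT and S1PR4-/- non-Tfh cells. In Tfh cells Il2rb was at 681.1 ± 43.8 and 723.1 ± 79.2 CPM. Klrb1c was at 1.82 ± 1.17 and 2.73 ± 1.08 CPM in WT and S1PR4-/- non-Tfh cells and at 53.1 ± 13.6 and 33.6 ± 8.09 CPM in Tfh cells. Slamf1 was at 37.2 ± 1.08 and 43.3 ± 6.64 CPM in non-Tfh cells and at 51.2 ± 3.9 and 47.3 ± 4.6 CPM in Tfh cells. Of the 3 genes tested, 2 were called higher in Tfh cells of either genotype, beside 43.2% and 43.4% of all genes called. Klrb1a was at 0 in all S1PR4-/- non-Tfh samples and at most at 0.327 CPM in the other groups. The part of these cells in the Trav11 values was not tested. Trav1, used by mucosal-associated invariant T cells, was at 0.527 ± 0.10% and 0.498 ± 0.10% in non-Tfh and at 0.706 ± 0.83% and 0.488 ± 0.50% in Tfh cells. Joining segments could not be examined, since 0 of 76 joining and diversity genes reached 100 counts and the most counted one had 19 over the 24 samples.

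Of the 8 genes for the constant chains (Trac, Trbc1 and Trbc2), CD3 subunits (Cd3d, Cd3e, Cd3g and Cd247) and Cd4, 0 were called in any of the 4 comparisons. Between populations, where 43.2% (WT) and 43.4% (S1PR4-/-) of all genes were called, some missed only the fold threshold. Trac, Cd247 and Cd4 passed the FDR as higher in Tfh cells of both genotypes. For Cd4 the log2 fold change was 0.42 and 0.38 (adjusted p = 0.000163 and 6.55e-05, edgeR). Cd3e in S1PR4-/- and Cd3g in WT passed the FDR as lower. Trac, the alpha constant region, was at 1401 ± 238 and 1423 ± 117 CPM in WT and S1PR4-/- non-Tfh cells and at 1762 ± 159 and 1603 ± 175 CPM in Tfh cells. Trbc1, one of both beta constant regions, was at 749.5 ± 99.8 CPM in WT and 585.2 ± 77.0 CPM in S1PR4-/- Tfh cells (log2 fold change -0.36, SE 0.10, adjusted p = 0.0726, edgeR), and Trbc2 at 1272 ± 138 and 1219 ± 92.8 CPM. Of 10 genes for rearrangement and other receptors, 6 of the 7 tested were called lower in Tfh cells in either genotype. Beside them stand the 43.2% (WT) and 43.4% (S1PR4-/-) of all genes called in either direction. Dntt, the enzyme that adds bases at rearranged joints, was at 12.2 ± 1.2 and 7.93 ± 1.33 CPM in WT and S1PR4-/- non-Tfh cells and at 0.577 ± 0.37 and 0.559 ± 0.34 CPM in Tfh cells. Trdc, the delta constant region, was at 10.6 ± 1.29 and 8.68 ± 0.98 CPM in non-Tfh and 1.74 ± 1.22 and 2.92 ± 1.57 CPM in Tfh cells. Rag1 and Rag2, the recombinase subunits, were at 0 counts in all 24 samples.

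Markers of other cells moved with the populations. The summed level of 12 B cell markers was 60.6 to 107.6 CPM in non-Tfh samples, 183.7 to 507.8 CPM in WT Tfh samples and 165.2 to 302.0 CPM in S1PR4-/- Tfh samples, with 0 of 12 at 0 in any group. The summed level of 8 plasma cell markers was 119.9 to 227.2 CPM in non-Tfh samples, and 291.7 to 682.2 and 247.4 to 294.7 CPM in WT and S1PR4-/- Tfh samples. Between genotypes in Tfh cells, 1 of 12 B cell and 3 of 7 tested plasma cell markers were called lower in S1PR4-/-. Of all genes, 0.496% were called by level in that comparison. The sorted B cells of the series held at most 0.307 CPM of beta and 0.195 CPM of alpha segment counts. For 6 myeloid markers the sum was 10.5 to 44.5 CPM in non-Tfh samples. It was 35.9 to 96.2 CPM (median 65.6) in WT Tfh and 24.6 to 455.5 CPM (median 66.9) in S1PR4-/- Tfh samples. With B and plasma cell marker levels as covariates, 0 segments were called between genotypes in Tfh cells, and the log2 fold change in usage was 0.35 for Trbv17 and -1.32 for Trav3-1.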

How the data were processed

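The authors trimmed reads (Cutadapt 2.10), aligned them to mm10 (STAR 2.5.3), marked duplicates (Picard) and deposited expected counts per gene (RSEM 1.3.0), not scaled for depth or length. Libraries were stranded and random-primed on oligo-dT captured RNA. RSEM divides reads shared by copies. Coordinates, lengths and sequences are from GENCODE M21, whose genes the table holds, although the methods name M30. Symbols matched for all 163 segments.

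Counts were rounded, filtered (filterByExpr) and tested with edgeR 4.0.16 (R 4.3.3). Usage fits replaced the TMM library size of each segment by the summed counts of its chain. P-values were adjusted over all genes tested (Benjamini-Hochberg). DESeq2 1.42.0 was an alternative. Scripts were tested on simulated data. The thresholds were an FDR under 0.05 and, except for the interaction, a fold change over 1.5.

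The members, lists and tests were chosen with earlier results of these data known. Named segments were the 5 most used of each chain, up to 5 called per comparison by lowest adjusted p, Trav11, Trav11d and Trav1, those beside the count limit, and up to 5 per group with 1 sample apart. Segments named beside other counts, and those with the lowest p between genotypes, were chosen after their values were seen.

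Replicate numbers are those of the sample labels. Same-numbered Tfh and non-Tfh samples of S1PR4-/- mice deviated together over all genes (correlations from 0.103 to 0.187). The same number was the best match in 6 of 6, so the numbers were taken to pair them there. In WT the correlations were 0.055 to 0.248, but the same number was the best match only for replicates 2, 3 and 5. The main fits do not use the pairing. With the replicate number as a block, 28 segments were called for usage between the S1PR4-/- populations, 22 of them among the 25 of the main fit. The share of all genes called with the block is not given here. The methods give 6 mice of each genotype. The labels do not tie samples to single mice, so p-values measure the spread between samples.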

Additional observations from a re-analysis of the deposited data

Results flagged for a closer look

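A sample stood apart from the other 5 of its group (Dixon's criterion for 6 samples) in 22 of 220 groups examined, which were 55 segments with a mean share of at least 1% in 4 groups, where chance gives about 1 in 20. In WT Tfh cells, replicate 6 was at 6.90% for Trbv12-1 (others 0.254 to 2.74%) and at 6.48% for Trav12-3 (0.817 to 2.46%), replicate 5 at 4.6% for Trav7-3 (0.917 to 1.83%), replicate 3 at 8.12% for Trav14d-3-dv8 (1.18 to 3.15%) and replicate 2 at 4.45% for Trav7d-4 (0.576 to 2.02%). In S1PR4-/- Tfh cells, replicate 2 was at 5.35% for Trbv17 (0.928 to 1.5%).

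In S1PR4-/- Tfh cells, replicate 5 was at 1.34% for Trav7d-2, for which the other 5 samples were listed at 0. Trav7d-2 and Trav7-2 each ranged from 0 to over 4% among WT non-Tfh samples, while their sum was 4.19 to 4.73%. In S1PR4-/- Tfh samples the sum was 1.4 to 3.23%. Of the 31-base words of Trav7d-2, 99.7% occur in other genes. Likewise WT non-Tfh replicate 5 was at 0.167% for Trav14n-2 and at 3.43% for Trav14d-2, its copy. In the other 5 samples both had equal shares of 1.46 to 1.79%, and the sum in all 6 samples was 2.91 to 3.60%.

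WT non-Tfh replicate 2 was at 1.88% for Trav14n-3 (others 2.54 to 2.73%) and at 1.77% for Trav6-7-dv9 (1.01 to 1.24%), and replicate 4 at 0.969% for Trav4n-4 (0.708 to 0.776%). S1PR4-/- non-Tfh replicate 1 was at 2.12% for Trav4n-4 (0.726 to 0.956%) and at 1.63% for Trav7-3 (1.13 to 1.3%), and replicate 6 at 1.97% for Trbv17 (2.38 to 2.62%). WT Tfh replicate 2 had an alpha evenness of 0.805 (others 0.866 to 0.870), and WT Tfh replicate 1 a summed alpha segment level of 302.9 CPM (others 197.1 to 231.5).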

How the results depend on the processing

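The number of segments called between genotypes in Tfh cells was 0 as reported, 5 by level with DESeq2, and 5 by level and 6 by usage in one fit of all T cell samples. In that one fit 0.778% (level) and 0.785% (usage) of all genes were called between genotypes in Tfh cells. In non-Tfh cells, 1 was called by level and by usage without the filter on low counts. Summed to families, 14 units were called for usage between populations in WT and 7 in S1PR4-/-, with 19 alpha and 19 beta families tested in each. Beside them stand 43.4% and 43.5% of all genes called. Leaving out 1 sample at a time gave 0 to 1 calls by level and 0 by usage between genotypes in Tfh cells, 0 to 1 by either in non-Tfh cells, 27 to 37 by level and 27 to 36 by usage between populations in WT, and 22 to 34 and 17 to 30 in S1PR4-/-. The lowest of these, 17, came without S1PR4-/- non-Tfh replicate 6. Between genotypes 1 call appeared by level in Tfh cells without WT replicate 6 or S1PR4-/- replicate 2, and in non-Tfh cells without WT replicate 3 or 6 or S1PR4-/- replicate 3, and by usage in non-Tfh cells without those or WT replicate 1 or 5. The replicate block gave 31 and 33 in WT, 34 and 28 in S1PR4-/-, and 0 between genotypes and for the interaction. The share of all genes called with the block, without 1 sample or without the filter is not given here. The calls in those fits therefore cannot be set beside genes at large. The replicate numbers were not taken as pairs outside the S1PR4-/- populations. Of the segments named with a test between those populations, the block removed the call of Trbv16.

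The evenness difference between populations (Tfh minus non-Tfh) was -0.046 for alpha segments in WT and -0.052 in S1PR4-/-. It was -0.010 and -0.0036 between families, and -0.135 and -0.130 as the inverse Simpson index over the number of segments. For beta segments it was -0.076 and -0.068, and -0.200 and -0.159 by that index. Between genotypes in non-Tfh cells it was 0.0065 for alpha segments, 9.0e-07 between families and 0.018 by that index, and -0.0013 and -0.0086 for beta segments. Leaving out 1 sample gave -0.049 to -0.036 and -0.058 to -0.044 for alpha, and -0.081 to -0.071 and -0.077 to -0.060 for beta segments between populations in WT and S1PR4-/-. Between genotypes it gave -0.0096 to 0.0089 (alpha) and -0.0026 to 0.015 (beta) in Tfh cells, and 0.0056 to 0.0080 and -0.0028 to 0.0001 in non-Tfh cells. Thinning to 5276 alpha and 6272 beta counts, dropping pseudogenes, adding the rarer segments and scaling by length, a choice made after seeing the data, moved each difference by less than the spread between samples, as did other normalizations for the summed levels.

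Of 23 pairs of a named segment and a comparison, 16 kept their direction and side of the threshold in all settings, and the rest kept their direction. Depth limits segments under about 1% of a chain, which rest on few counts.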
